A study of Drosophila melanogaster with 4 samples.

Results

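The Snail family genes escargot (esg, Dmel_CG3758), worniu (wor, Dmel_CG4158) and snail (sna, Dmel_CG3956) lie together on chromosome arm 2L of Drosophila melanogaster, and dSFMBT binding across their locus is described here. The members were taken by position, as every enriched region that overlapped 2L from 15240000 to 15490000 in FlyBase release 5. The locus itself was chosen with earlier results of these data known. The locus held 14 of the 9756 regions of the list that combined the ChIP replicates, 5 of the 5514 regions of replicate 1 and 5 of the 6004 regions of replicate 2. The data came from chromatin immunoprecipitation and sequencing with the antibody Q2642 against dSFMBT, in Oregon-R, a wild-type strain, at the third instar of larval life. The design had 2 ChIP libraries and 2 input libraries, and all 4 came from the same strain, genotype and stage. Each region carried 1 score from the authors. No header names its scale, so it was read as log2 from the values, and a ratio given below is 2 raised to that score. The inputs had no region list here, so no region was measured in them, and read depth is unknown.

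Snail family proteins are zinc finger transcription factors that bind E-box sequences and act mostly as repressors, in part by recruiting the corepressor CtBP. In the fly, sna specifies the mesoderm and drives its invagination, esg keeps imaginal cells diploid and maintains stem cells of the gut and the testis, and wor acts in neuroblasts, where all the family members share functions. dSFMBT is a Polycomb group protein with MBT repeats that forms the complex PhoRC with the DNA-binding protein Pho, which recognises sites in Polycomb response elements and helps to bring other Polycomb complexes to developmental genes. Polycomb group proteins keep such genes silent in cells where they are not used. Larval chromatin may come from cells in which these genes are on and cells in which they are off, and a score would then be an average over them. Expression was not measured here.

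The reference gene table gave the order of the genes along the arm as esg, wor and sna. Between esg and wor it listed 7 genes, of which 5 were long non-coding RNA genes and 2 were the protein-coding genes CG15258 and CG44869. Between wor and sna it listed 5 genes, of which 4 were long non-coding RNA genes and 1 was CG4161. The gene before esg was nht, and the gene after sna was Tim17b2. The table belongs to release 6 and the regions to release 5. It was therefore used for names and order only, and no region was assigned to a gene, an exon or a promoter.

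dSFMBT regions across the locus were fewer per Mb than on the arms as a whole, and their median combined score was below that of the whole list. The combined list had 56.0 regions per Mb there, 68.0 per Mb on 2L and 75.4 per Mb on the 6 arms 2L, 2R, 3L, 3R, 4 and X. Both replicates had a region at 3 of the 14 members. A further 2 (14.3%) matched replicate 1 only, beside 9.89% of the whole list. Another 2 (14.3%) matched replicate 2 only, beside 16.7% of the whole list, and 7 matched neither library. The share found in both was 21.4% (95% exact Clopper-Pearson interval 4.66 to 50.8%), beside 41.4% of the whole combined list. The share found in neither was 50% (23.0 to 77.0%), beside 32.1% of the whole list. The whole-list shares found in both and in neither lie inside these intervals for the locus. The intervals treat the 14 neighbouring regions as independent, which they may not be, and the whole list includes these regions. They are therefore not a test, and no difference in any of these shares is claimed. The intervals cover counting error only. No member had a ratio above 2 in the combined list, where 6.21% of all regions did. The same was true of the 5 members in replicate 1, where 8.61% of the list was above 2, and of the 5 in replicate 2, where 12.5% was.

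**Figure D1:**
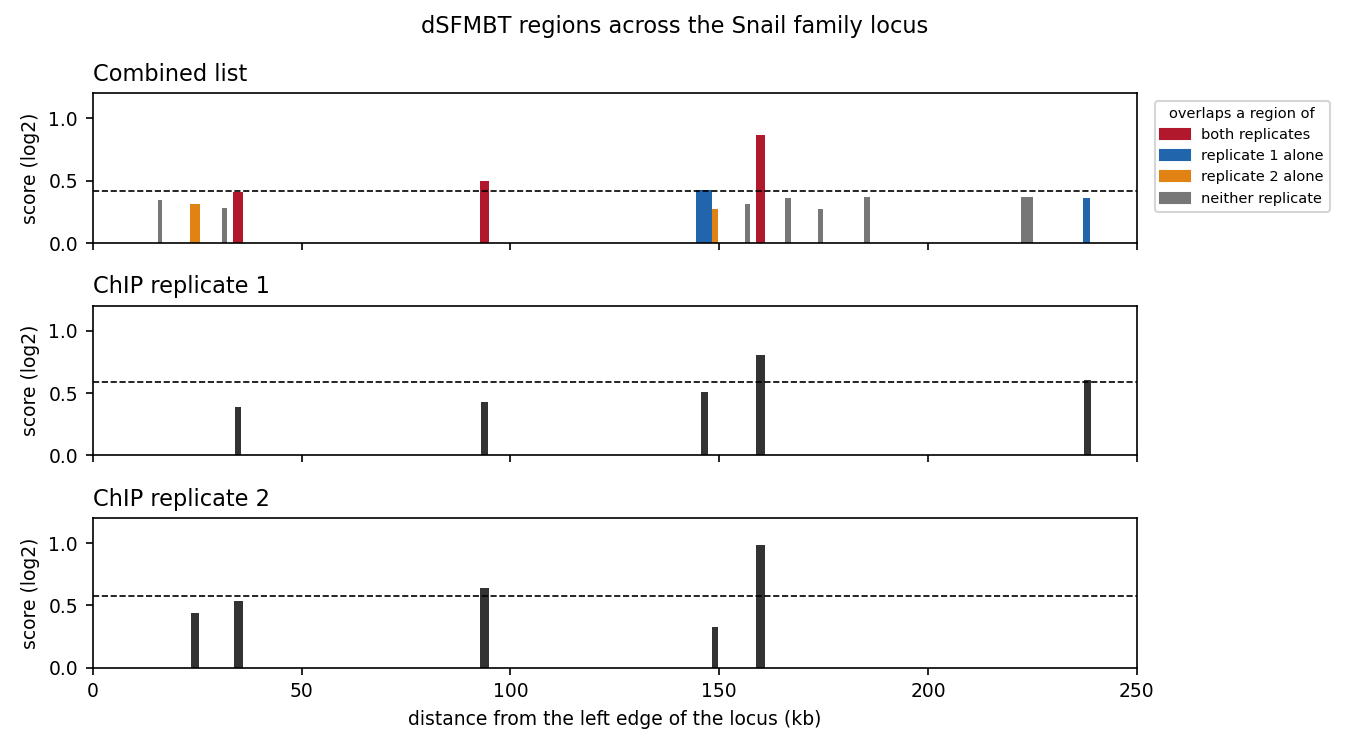
Position and score of every region of the Snail family locus in the combined list and in each ChIP replicate. The horizontal axis is the distance from the left edge of the locus in kb, bar width is region width, bar height is the log2 score, and the dashed line is the median score of the whole list. Red bars of the combined list, at 33.6, 92.7 and 159 kb, overlap a region in both replicates.

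The region with the highest score lay at 2L from 15398785 to 15401019. It was 2235 bp wide, and its combined score was 0.86, a ratio of 1.82, above 90.9% of the combined list and at rank 125 among the 1565 regions of 2L. Its score was 0.81 in replicate 1 and 0.98 in replicate 2, with a mean of 0.90 ± 0.12 (SD, n = 2). It stood above the list median in each library, higher than 81.6% of the replicate 1 list and 86.8% of the replicate 2 list. The borders were close as well. The replicate 2 region began 54 bp before the replicate 1 region and ended 12 bp before it, and the centres lay 33 bp apart.

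A region from 15332700 to 15334980 ranked next, with a combined score of 0.50, a ratio of 1.42, above 66.7% of the combined list. It scored 0.43 in replicate 1 and 0.64 in replicate 2, a mean of 0.54 ± 0.15 (SD, n = 2). The libraries placed it differently in their own rankings. It was above 11.8% of the replicate 1 list, near the bottom, and above 60.8% of the replicate 2 list. Its replicate 1 region, 1749 bp wide, lay wholly inside the replicate 2 region of 2273 bp, and the centres were 54 bp apart.

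The last region found in both libraries lay from 15273586 to 15275922 and had a combined score of 0.41, a ratio of 1.33. It scored 0.39 in replicate 1 and 0.54 in replicate 2, a mean of 0.46 ± 0.11 (SD, n = 2). It too was near the bottom of the replicate 1 list, above 5.98% of it, and above 42.4% of the replicate 2 list. The replicate 1 region of 1448 bp was again contained in the replicate 2 region of 2059 bp.

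Scores of these 3 regions were all higher in replicate 2 than in replicate 1, by 0.15, 0.21 and 0.17 in order of position. Over all 4036 regions found in both replicates the median of that difference was 0.03, with quartiles of -0.07 and 0.16. The 3 differences exceeded those of 73.8%, 81.9% and 76.9% of the 4036 regions. Scores of separately made lists may not be on the same scale, since the files do not say what the ratio compares. The highest of the 3, picked by its combined score from the same data, also ranked above the other 2 within each list. Its score was 0.81 in replicate 1, where the others had 0.43 and 0.39. In replicate 2 it was 0.98, where the others had 0.64 and 0.54. Values of the other 2 overlapped across the lists, which may differ in scale.

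**Figure D2:**
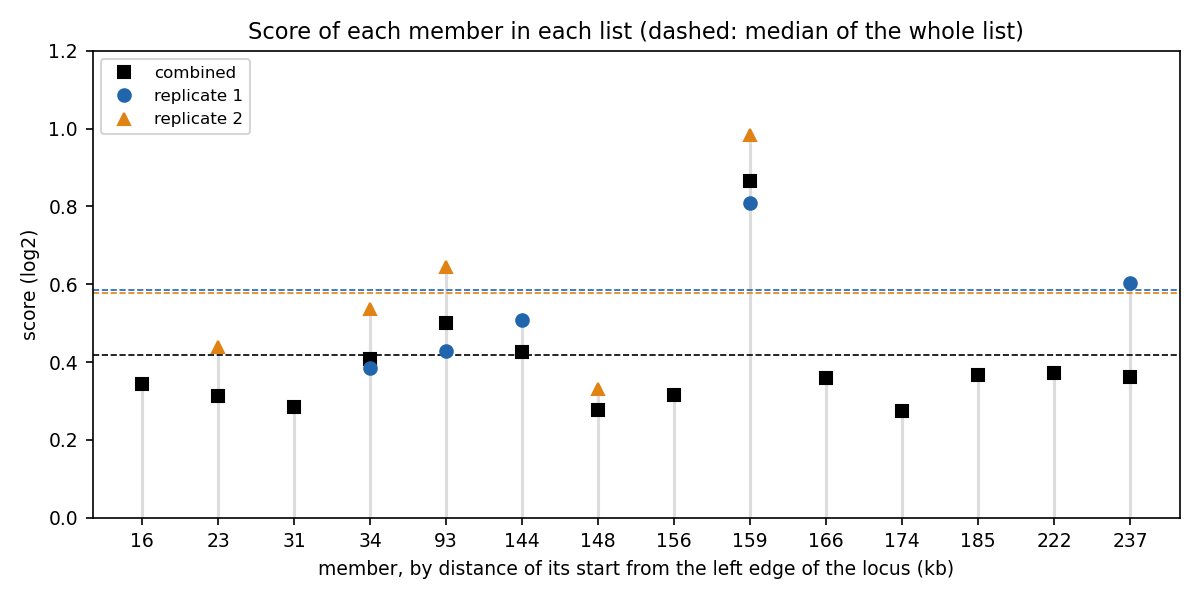
Log2 score of each of the 14 combined-list members (squares) and of the replicate 1 (circles) and replicate 2 (triangles) regions that overlap it, ordered by the distance of the member from the left edge of the locus in kb. Dashed lines are the medians of the whole lists, and the member at 159 kb is the only one above the median in all 3.

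Of the regions found in a single library, a close pair lay side by side, and the others lay toward opposite ends of the locus. On the combined list, a region from 15384333 to 15388191 was the widest member, at 3859 bp, with a score of 0.43, and a region from 15388316 to 15389785 followed after a gap of 124 bp, with a score of 0.28. Replicate 1 held only the former, as a region from 15385554 to 15387390 that scored 0.51. Replicate 2 held only the latter, as a region from 15388223 to 15389820 that scored 0.33, above 4.31% of its list. These replicate regions lay 832 bp apart, so the libraries had enrichment at neighbouring positions without sharing a base.

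The other single-library regions were each further from any counterpart. Replicate 1 had a region from 15477457 to 15479034 at 0.60, above 53.8% of its list, and the nearest replicate 2 region was 76.5 kb away inside the locus and 18.9 kb away beyond its right edge. Its score of 0.60 was the second highest of the locus in replicate 1, and the overlapping combined-list member, from 15477188 to 15478888, scored 0.36. Replicate 2 had no region in the last 50 kb of the locus. Replicate 2 in turn had a region from 15263536 to 15265575 at 0.44, which lay 8.49 kb from the nearest replicate 1 region and matched a combined-list member at 0.31. Of the 5 replicate 1 regions, 3 (60%) were found in replicate 2, beside 79.4% of its whole list, and of the 5 replicate 2 regions 3 were found in replicate 1, beside 71.1%.

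The 7 members found in neither replicate had combined scores from 0.27 to 0.37 and widths from 1014 to 2799 bp. All 7 scores were at or below 0.37, the median of the 3129 regions found in neither replicate. Their median width was 1276 bp, beside 1251 bp for that class. Of the 7, 4 (57.1%) were narrower than 1301 bp, which is the smallest width in either replicate list, beside 1721 of the 3129 (55.0%). In the whole combined list 1958 regions were below that width, and 1 of them overlapped a region of both replicates. Whether the lower limit of width kept the 4 members out of the replicate lists was not tested. The remaining 3 were wide enough to be listed. The widest of these, from 15462369 to 15465167, was 2799 bp wide and scored 0.37.

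**Figure D3:**
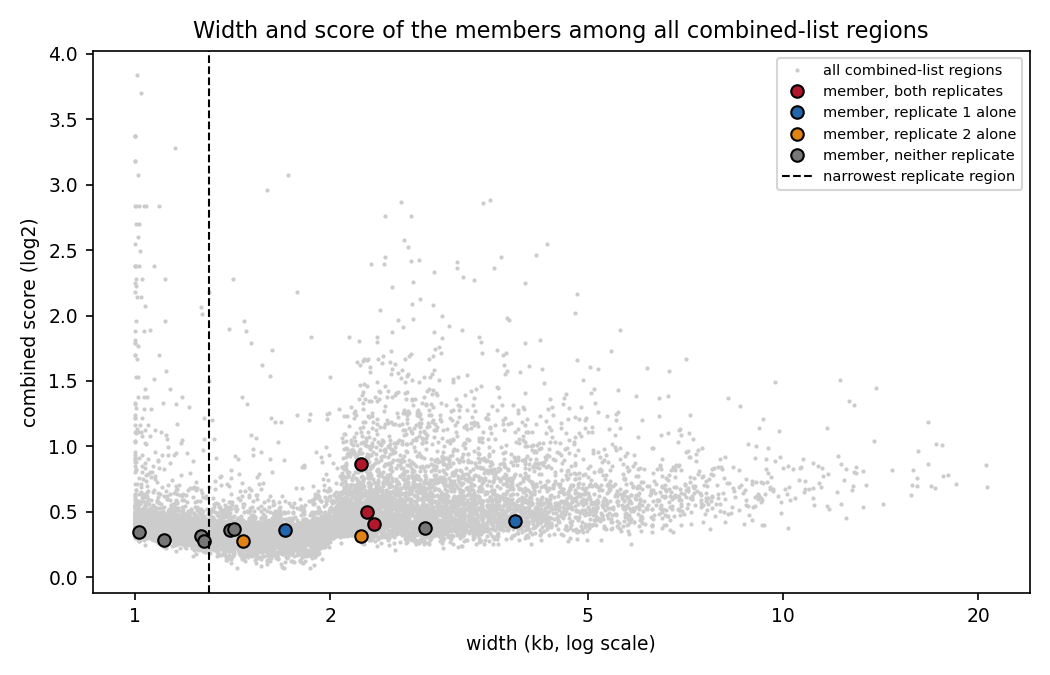
Width in kb on a log axis against combined log2 score for all 9756 combined-list regions (grey) and the 14 members (coloured by the replicates they overlap). The dashed line marks the narrowest region of the replicate lists, 1301 bp, and the members lie at or below a score of 0.86.

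Low scores went with low recovery throughout the combined list. In the lowest quartile of combined scores, up to 0.34, 10.1% of regions were found in both replicates, and the shares in the next quartiles were 20.4%, 53.3% and 81.8%. The locus had 5, 6, 2 and 1 members in these quartiles from lowest to highest, of which 0, 1, 1 and 1 were found in both. The median member scored 0.36, against 0.39 on 2L and 0.42 in the whole list. The median width of the members was 1585.5 bp, against 2015 bp on 2L.

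The members stood in 4 groups, parted by gaps of over 30 kb, a limit set after the positions were seen. The leftmost group had 4 members in 20.4 kb, from 15255542 to 15275922, with scores up to 0.41. After a gap of 56.8 kb came the single region at 15332700, and after a further 49.4 kb the largest group, with 7 members in 41.9 kb from 15384333 to 15426199. This group contained the region with the highest score of the locus. Another gap of 36.2 kb separated it from the last group of 2 members, in which none was found in both replicates. The covered share of the span was 32.8% in the leftmost group, 30.9% in the largest and 27.2% in the last. Each span starts and ends on a region and leaves out the long gaps, which raises these shares. Gaps of this size were in the upper part of the range on 2L, where 151 of 1564 gaps exceeded 30 kb and the median gap was 4.50 kb. Inside the locus the median gap was 6.54 kb.

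Long stretches with no combined-list region lay across the left edge of the locus and at a distance beyond its right edge. On the left, none was listed over 141 kb, from 15114264 to 15255542, the 13th longest of the 1564 gaps on 2L. Of this gap, 126 kb lay outside the locus and the rest inside it. On the right, beyond the edge set by the rule, a region from 15497903 to 15500711 scored 1.03, a ratio of 2.05, and began 7.90 kb outside the locus. A second, from 15503462 to 15505787, scored 0.95. Both were found in both replicates, with means of 1.10 ± 0.12 and 0.93 ± 0.35 (SD, n = 2 for each), and both combined scores were higher than that of any member. After them came 212 kb with no combined-list region, the second longest gap on 2L, in which the replicate lists held 1 region between them. Just inside the right edge, the last member scored 0.36. The placement of that edge therefore decides whether the locus includes a region with a ratio above 2.

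Covered length was low in all lists. Combined-list regions covered 26.4 kb of the locus, 10.6%, beside 16.4% of 2L and 18.4% of the 6 arms. Replicate 1 covered 3.50% of the locus, beside 9% of 2L, and replicate 2 covered 4.06%, beside 10.7%. Regions found in both replicates numbered 12 per Mb in the locus, 29.2 per Mb on 2L and 32.3 per Mb on the 6 arms.

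Windows of the same length as the locus were laid end to end along the 6 arms, leaving out those that overlapped it, to show the range of such values. Of 477 windows, 101 (21.2%) had a smaller covered share than the locus, and the median window was 18.0% covered. Fewer than 3 regions found in both replicates were present in 51 windows, exactly 3 in 22 and more in 404, with a median of 8. Having no region with a ratio above 2 was common, as 196 of the 477 windows (41.1%) had none. The highest score of the locus exceeded the highest score of 127 windows and lay within the window quartiles of 0.85 and 1.38. By number of combined-list regions, 127 windows had fewer than the 14 of the locus, 22 had the same and 328 had more. The quartiles of that number were 13 and 25, so the count for the locus lay between them. On 2L alone, 26 of 90 windows were less covered than the locus. These counts are a description of the arms and not a test, since neighbouring windows are not independent. The locus was also picked for its genes, with earlier results of these data known.

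**Figure D4:**
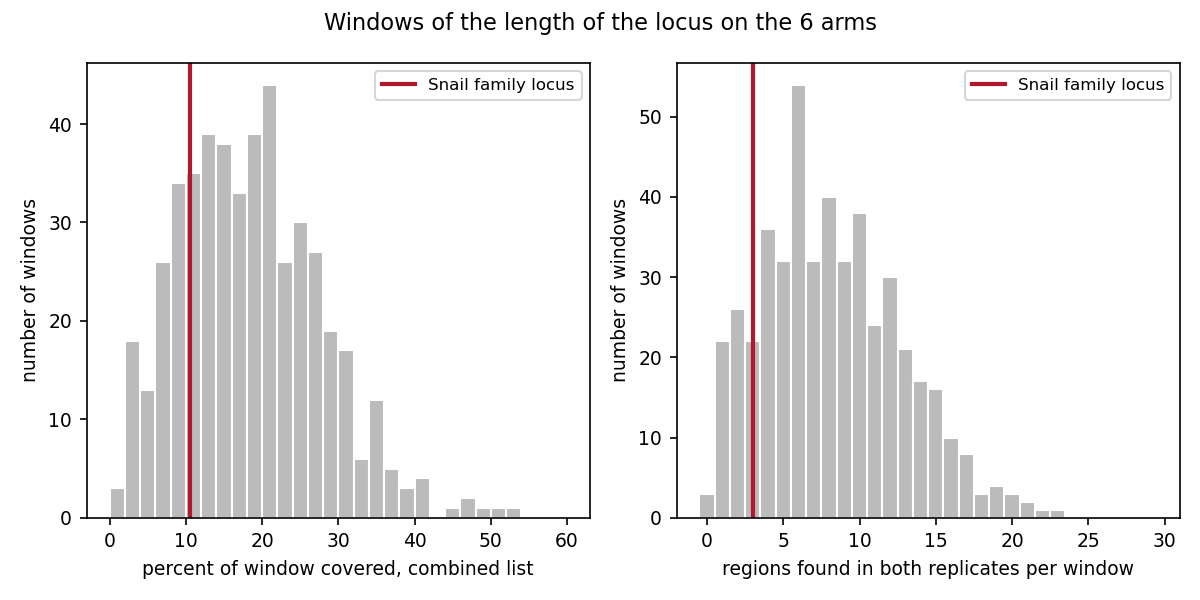
Number of windows of the length of the locus on the 6 arms by percent of the window covered in the combined list (left) and by number of regions found in both replicates (right). The red line is the locus, at 10.6% covered and 3 regions, in the lower part of both ranges.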

How the data were processed

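The files deposited by the authors are 3 lists of enriched regions, from ChIP replicate 1, ChIP replicate 2 and both together, in FlyBase release 5 coordinates, per the file headers. Bowtie 0.12.7 was the aligner, per the submitters' processing notes. The region caller, its threshold, how inputs entered and how multiply mapping reads were handled are steps not given in the sources used here. Scores deposited by the authors were read as log2 values, since no header names a scale. Of the 66 differences between the 12 most frequent scores, 16 in the combined list, 44 in replicate 1 and 24 in replicate 2 equalled log2 of a simple ratio (denominator up to 40, tolerance 1e-07), and natural log and log10 matched 0. Nothing in the labels shows that the replicates came from separate larvae.

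Regions were compared in Python 3.11.15 (scipy 1.17.1, pandas 2.3.3, numpy 2.4.6), and figures were drawn with matplotlib 3.10.9. An overlap of at least 1 bp counted as shared. Overlap and coverage were checked on simulated lists against bedtools 2.31.1. A percentile is the share of a list with a lower score. No test between groups was made, because the inputs have no region list here. The locus and its genes were chosen with earlier results of these data known. The text names esg, wor and sna, their neighbours by order, the members found in both replicates, and the 3 widest and 3 highest members. Other members and the regions just outside the locus were named after their values were seen. Promoter motifs and protein features of the genes were planned and not analysed here.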

Additional observations from a re-analysis of the deposited data

How the results depend on the processing

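The number of members found in both replicates was also 3 when each replicate had to cover 50% of the region (37.5% of the whole list). Among regions at least 1301 bp wide it was 3 of 10 (30.0%), beside 4035 of 7798 (51.7%). It was 1 when only replicate regions at or above their list's median score were used, where fewer regions entered (19.3% of the whole list). Requiring a single replicate list gave 5 of 14 members (35.7%) for each, beside 58.0% of the whole list without replicate 1 and 51.3% without replicate 2. Extending the locus by 20 kb on each side gave 16 regions, since the 2 regions beyond the right edge entered. Of the 16, 5 were found in both replicates, beside 41.4% of the whole list. A ratio above 2 was met by 1 of the 16, beside 6.21% of the whole list. In place of a ratio above 2, a score above the 90th percentile of the combined list was met by 1 of the 14 members, beside 10.0% of that list. The replicate lists had 0 members with a ratio above 2, beside 8.61% of the replicate 1 list and 12.5% of the replicate 2 list. The covered share of the locus, 10.6% in the combined list, was 2.74% for regions found in both replicates (11.3% of the 6 arms), 3.35% at or above the median score (11.2%), 2.13% for bases covered by both replicate lists (7.92%) and 3.50% to 4.06% in a single replicate list. In each case the locus was less covered than the arms. The share of windows less covered than the locus was 21.2%, 20.3% with windows shifted by 0.5 of their length and 10.3% to 12.6% in the single replicate lists. The arms alone gave 42.9% of combined-list regions found in both replicates. Extending the locus and the limit on width were chosen after seeing the data. No paired analysis was possible because only the ChIP group has region lists here and nothing was tested between groups. Motif and protein results were planned and not run. Depth is unknown, so a place with no listed region is not shown to be unbound.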
